A study of Homo sapiens with 5 samples.

Results

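This account covers 9 human genes of MHC class I antigen presentation in REH leukaemia cells that were recovered from the brain or the spleen of mice. The genes were taken by name: the heavy chain genes HLA-B, HLA-C, HLA-E and HLA-F, the light chain gene B2M, the peptide transporter genes TAP1 and TAP2, the tapasin gene TAPBP and the transactivator gene NLRC5. Each symbol matched 1 identifier of the primary assembly among the 65217 gene identifiers of the deposited count table, and all 9 were among the 20419 genes with enough counts to be tested.

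REH is an established precursor B cell acute lymphoblastic leukaemia line with the ETV6-RUNX1 (TEL-AML1) fusion. It was transplanted into immunodeficient NSG mice (NOD.Cg-PrkdcscidIl2rgtm1Wjl/SzJ), 6 to 10 weeks old, a strain that lacks mature T, B and natural killer cells. Leukaemia cells from the leptomeninges of the brain (3 libraries) and from the spleen (2 libraries) were purified on a density gradient, and each library pooled the RNA of 5 mice from 1 occasion. The labels give no drug or other treatment to either group, so the comparison is of the organ from which 1 cell line was recovered. The p-values measure the spread between libraries of separate occasions, not between single animals. A further spleen library failed the submitters' quality control, and bone marrow cells were not analysed here.

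Class I molecules carry peptides from inside the cell to its surface. Peptides made by the proteasome are pumped into the endoplasmic reticulum by TAP1 and TAP2, tapasin holds the transporter to empty heavy chains, and a heavy chain leaves for the surface only with B2M and a bound peptide. HLA-B and HLA-C present to cytotoxic T cells, whereas HLA-E mainly displays leader peptides of other class I proteins to receptors of natural killer cells, and HLA-F is a less polymorphic relative. NLRC5 is the main transcriptional activator of class I genes and of their loading partners. It acts through a promoter module of W/S, X and Y boxes, and interferon acts through a neighbouring element.

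Each library held 38387991 to 48764202 estimated counts of human genes, of which the 9 genes together took 0.468% to 0.574%. The share of mouse transcripts was 2.58% to 5.70% in brain and 6.33% and 8.87% in spleen, so host RNA moved with the groups. A fit with the mouse share as a covariate, used below, therefore has little with which to tell organ from host RNA. A call lost in that fit does not show which of them a gene follows. The B precursor markers summed to 6831 to 6920 CPM (counts per 1000000, scaled by the TMM method) in brain and 8218 and 7724 CPM in spleen. Of these 11 markers 10 were tested, and edgeR called 1 lower in brain (CD79A) and 0 higher, with 1 higher and 4 lower at an unadjusted p under 0.05, while DESeq2 called 2 lower and 0 higher. VPREB1 had 0 counts in every library. T cell markers summed to 0.555 to 1.08 CPM, with CD3D at 0 counts, and erythroid markers to 0.128 to 0.357 CPM. Myeloid markers summed to 28.5 to 39.4 CPM in brain and 22.9 and 18.3 CPM in spleen, mostly from MPO, and neural and glial markers to 18.5 to 20.1 CPM and 17.8 and 15.3 CPM, mostly from MBP, with SNAP25 at 0 counts. GFAP, an astrocyte marker, had 19, 34 and 33 counts in brain and 15 and 9 in spleen. RBFOX3, a neuronal marker, went the other way, with 106, 194 and 113 counts in brain and 282 and 193 in spleen. Of the 3 neural and glial markers tested, 2 were higher and 1 lower in brain at an unadjusted p under 0.05 by edgeR. Of the myeloid and neural markers edgeR called 0, whereas DESeq2 called 1 of each list higher in brain. The part of these markers in the results below was not tested.

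The promoters are shown first because parts of the class I module can be looked for in them. The W/S box was not searched, and of the X box only the X2 part was. RefSeq windows (GRCh38.p14) were found for 7 of the 9 genes, not for HLA-E and NLRC5. TAP1 had 2 windows, of which the second (chr6:32852762-32853011) held none of the motifs searched, and TAP1 below means the first. Each line below gives the 250 bases before a start site, 5′ to 3′ on the gene's strand, for 1 classical heavy chain, 1 further heavy chain, the light chain and 1 transporter subunit. Capitals mark matches, on either strand, to AANNGAAA (short interferon response core), TGACGC (X2 box), CCAAT (Y box) or to the kappaB type motif (GGG, any 3 bases, T, any base, CC), and also cover a longer interferon core described below. Matches to different motifs can overlap. The forms of these motifs were chosen after the sequences had been seen, and the X2 and Y letters are short enough to occur by themselves.
HLA-B, chr6:31357180-31357429, minus strand: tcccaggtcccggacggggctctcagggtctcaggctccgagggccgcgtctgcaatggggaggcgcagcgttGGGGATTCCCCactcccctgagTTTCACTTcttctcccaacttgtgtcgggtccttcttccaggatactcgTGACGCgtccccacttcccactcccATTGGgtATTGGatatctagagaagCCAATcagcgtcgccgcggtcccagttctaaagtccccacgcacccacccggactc
HLA-F, chr6:29723184-29723433, plus strand: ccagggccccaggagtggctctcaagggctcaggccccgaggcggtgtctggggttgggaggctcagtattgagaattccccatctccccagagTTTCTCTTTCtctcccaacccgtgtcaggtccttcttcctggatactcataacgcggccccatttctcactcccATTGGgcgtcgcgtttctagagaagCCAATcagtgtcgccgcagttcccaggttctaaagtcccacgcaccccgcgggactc
B2M, chr15:44711267-44711516, plus strand: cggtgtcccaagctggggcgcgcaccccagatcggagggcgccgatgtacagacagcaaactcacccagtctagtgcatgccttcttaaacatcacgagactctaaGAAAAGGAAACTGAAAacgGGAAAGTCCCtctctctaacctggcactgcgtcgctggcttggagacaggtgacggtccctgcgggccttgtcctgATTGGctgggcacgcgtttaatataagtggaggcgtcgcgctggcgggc
TAP1, chr6:32853705-32853954, minus strand: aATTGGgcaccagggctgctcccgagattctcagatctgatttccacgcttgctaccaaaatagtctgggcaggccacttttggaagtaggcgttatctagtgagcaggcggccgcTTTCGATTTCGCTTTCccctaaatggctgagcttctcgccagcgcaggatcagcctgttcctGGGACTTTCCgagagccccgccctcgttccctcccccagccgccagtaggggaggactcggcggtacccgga

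Read from the left, the HLA-B window holds the kappaB match, then the interferon core, then the X2 box and then 3 Y box matches. AANNGAAA, TGACGC and CCAAT occurred together in the HLA-B and HLA-C windows, and all 3 occurred in 0.359% of the 35116 RefSeq windows. Since the forms were chosen after the sequences had been seen, that share is no independent measure of rarity. HLA-F had the interferon core and 2 CCAAT matches but no TGACGC, and TAP2 had the interferon core and TGACGC but no CCAAT. The B2M, TAP1 and TAPBP windows held AANNGAAA and a kappaB type match but no TGACGC. The first 2 also held 1 CCAAT match each, 49 bases before the start in B2M and 249 in TAP1. The longer interferon core, GAAA and again GAAA with 2 bases between, found in 3.02% of all windows, lay in the windows of HLA-F, B2M, TAP1, TAP2 and TAPBP and not in those of HLA-B and HLA-C. Singly, the short motifs are common: AANNGAAA was in 20.3% of windows, TGACGC in 7.67%, CCAAT in 32.0% and the kappaB type in 18.9%. TAP1 and the immunoproteasome gene PSMB9 overlap on opposite strands over 8608 bases of the GENCODE annotation (GRCh38), from which all gene positions below are taken.

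In brain, HLA-E and NLRC5 were higher, and the other 7 genes did not pass the threshold. With edgeR's quasi-likelihood test and Benjamini-Hochberg adjustment over all 20419 genes, 2 of 9 members were higher in brain and 0 were lower, against a background of 6.01% of all tested genes higher and 3.5% lower, 9.51% in all. At an unadjusted p under 0.05, 4 members were higher and 0 lower, where 14.2% of all tested genes were higher and 11.3% lower. The DESeq2 Wald test and limma on the authors' log2 values likewise called 2 higher and 0 lower. All 9 fitted fold changes were above 1, with a median log2 fold change of 0.13, where the median over all tested genes was 0.0066 and 50.7% of genes were above 0. Both calls rest on few libraries and lie close to the threshold: leaving out any 1 of the 5 libraries left 0 or 1 member called. Since bulk RNA was measured, more cells with a gene on and more RNA per cell cannot be told apart.

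HLA-E (ENSG00000204592, GRCh38 chromosome 6, 30489509 to 30494194, plus strand) stood at 588, 629 and 587 CPM in brain replicates 1 to 3 and at 473 and 428 CPM in spleen replicates 1 and 2. Both spleen values were below all brain values, and the gap was wider than the spread within either group. The log2 fold change was 0.42 (SE 0.103, edgeR adjusted p = 0.0375), a 1.34-fold difference. Its direction was the same without each library, with log2 fold changes of 0.34 to 0.48, but the adjusted p was then 0.0509 to 0.132. The call was also lost with the labelled replicate number as a block (0.44, edgeR adjusted p = 0.0601), with DESeq2 size factors (adjusted p = 0.0511) and with summed transcript estimates (adjusted p = 0.0526). With the mouse share as a covariate its log2 fold change was 0.30 (edgeR adjusted p = 0.541).

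NLRC5 (ENSG00000140853, chromosome 16, 56989485 to 57083531, plus strand) stood at 330, 405 and 296 CPM in brain and 230 and 246 CPM in spleen. The groups did not overlap, although brain replicate 2 lay well above the other brain libraries. The log2 fold change was 0.53 (SE 0.140, edgeR adjusted p = 0.0470), a 1.44-fold difference. With the labelled replicate number as a block it was 0.62 (edgeR adjusted p = 0.0166). Brain replicate 3, the lowest brain value, has no spleen library of its number. The block fit therefore draws the organ difference from the same libraries as the fit without brain replicate 3. Of the 5 fits that left out a library, the call held in the fit without brain replicate 3 (0.62, adjusted p = 0.0390) and was lost in the other 4, at log2 fold changes of 0.40 to 0.58 and adjusted p of 0.0788 to 0.160. It was lost too with DESeq2 size factors (adjusted p = 0.0526), with summed transcript estimates (0.42, adjusted p = 0.122) and with the mouse share as a covariate (0.50, adjusted p = 0.445).

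**Figure D1:**
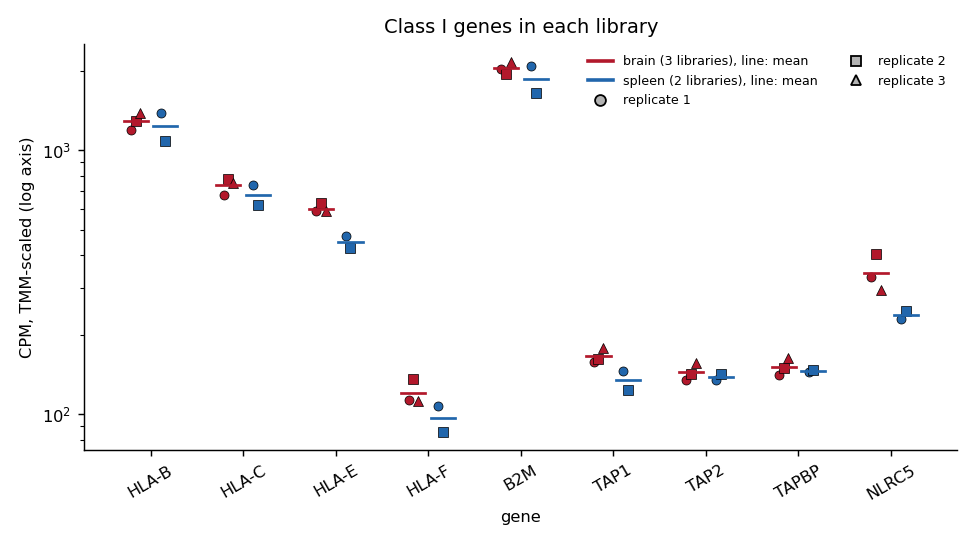
CPM of the 9 class I genes in each library on a log axis, brain in red and spleen in blue, with a marker for each replicate and a line at each group's mean. The brain points of HLA-E, HLA-F, TAP1 and NLRC5 all lie above the spleen points, and those of the other 5 genes overlap.

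The classical heavy chains overlapped between the organs. HLA-B (ENSG00000234745, chromosome 6, 31353872 to 31367067, minus strand) had 1194, 1294 and 1387 CPM in brain and 1387 and 1082 CPM in spleen. Spleen replicate 1 matched the highest brain library and spleen replicate 2 was the lowest of all 5. The log2 fold change was 0.065 with a 95% interval of -0.23 to 0.36 (edgeR adjusted p = 0.814). HLA-C (ENSG00000204525, chromosome 6, 31268749 to 31272130, minus strand) had 676, 777 and 754 CPM in brain and 737 and 622 CPM in spleen, again with spleen replicate 2 lowest. Its log2 fold change was 0.11, with a 95% interval of -0.15 to 0.38 (edgeR adjusted p = 0.604). Both intervals hold the fold change seen for HLA-F, so a change of that size in the classical genes was not excluded.

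HLA-F (ENSG00000204642, chromosome 6, 29722775 to 29738528, plus strand) had 113, 136 and 112 CPM in brain and 107 and 85.8 CPM in spleen. The groups did not overlap, but the lowest brain library and spleen replicate 1 were close. The log2 fold change of 0.32 (SE 0.132, 95% interval 0.019 to 0.62) did not pass the adjusted threshold (edgeR adjusted p = 0.170).

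Counts of HLA-E for each count of HLA-B were 0.492, 0.486 and 0.423 in brain and 0.341 and 0.395 in spleen. This ratio within a library does not depend on library scaling, and its brain values all lay above its spleen values. The gap, 0.423 against 0.395, was smaller than the spread within either group. The ratio rests on the same counts as the HLA-E call, and the share of other gene pairs that separate so was not determined. For HLA-F against HLA-B the ratios were 0.0947, 0.105 and 0.0809 in brain and 0.0772 and 0.0793 in spleen, which are nearly in contact. The ratio of HLA-B to HLA-C counts overlapped, at 1.67 to 1.84 in brain and 1.74 and 1.88 in spleen.

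B2M (ENSG00000166710, chromosome 15, 44711358 to 44718851, plus strand), the shared light chain, had 2032, 1948 and 2152 CPM in brain and 2079 and 1650 CPM in spleen. Spleen replicate 1 fell among the brain libraries and, as with HLA-B, spleen replicate 2 fell below them. The log2 fold change was 0.13 with a 95% interval of -0.15 to 0.41 (edgeR adjusted p = 0.562).

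The transporter subunits gave unlike values. TAP1 (ENSG00000168394, chromosome 6, 32845209 to 32853816, minus strand) had 158, 162 and 178 CPM in brain and 146 and 124 CPM in spleen, without overlap. Its log2 fold change was 0.30 (SE 0.112, 95% interval 0.048 to 0.55), which did not pass (edgeR adjusted p = 0.130). TAP2 (ENSG00000204267, chromosome 6, 32821833 to 32838739, minus strand) had 134, 142 and 156 CPM in brain and 135 and 142 CPM in spleen, almost the same range. Its log2 fold change was 0.057 with a 95% interval of -0.17 to 0.29 (edgeR adjusted p = 0.787). TAP1 counts for each TAP2 count were 1.17, 1.14 and 1.14 in brain and 1.08 and 0.871 in spleen, and the difference between the subunits' changes was not tested. TAPBP (ENSG00000231925, chromosome 6, 33299694 to 33314284, minus strand) had 140, 149 and 163 CPM in brain and 145 and 146 CPM in spleen, so that both spleen values fell inside the brain range. Its log2 fold change was 0.050 with a 95% interval of -0.18 to 0.28 (edgeR adjusted p = 0.815).

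**Figure D2:**
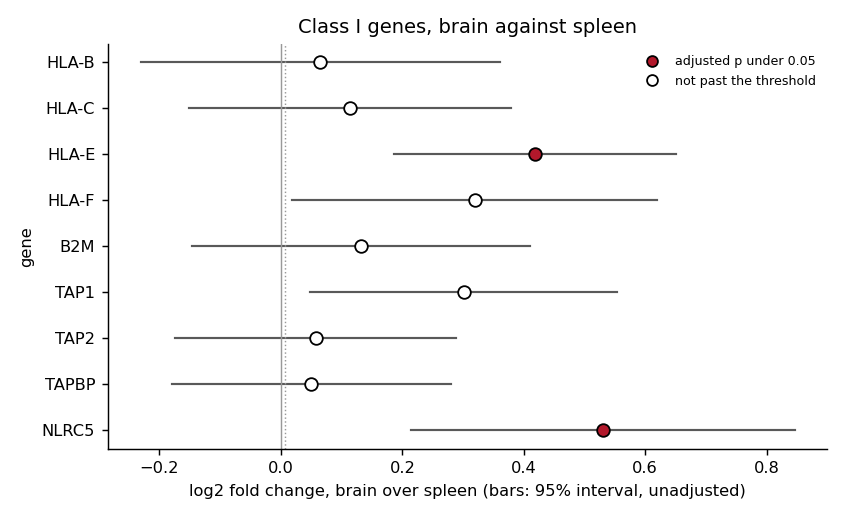
Log2 fold change of each class I gene, brain over spleen, with its 95% interval without adjustment for the number of genes; the dotted line is the median of all tested genes at 0.0066. HLA-E and NLRC5, filled, passed the adjusted threshold, and the intervals of HLA-F and TAP1 exclude 0 without passing it.

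Across the 9 genes, the brain values were all above the spleen values in 4 (HLA-E, HLA-F, TAP1 and NLRC5) and all below in 0, where 23.3% of all tested genes lay above and 19.5% below. Summed over the 9, levels were 5365, 5643 and 5784 CPM in brain and 5440 and 4526 CPM in spleen, which overlap. Spleen replicate 2, the library with the highest mouse share, was the lowest of the 5 for HLA-B, HLA-C, HLA-E, HLA-F, B2M and TAP1, but not for TAP2, TAPBP and NLRC5. Without that library the log2 fold changes of HLA-B, HLA-C and B2M were -0.11, -0.0060 and -0.028, and 6 of 9 were above 0. Without spleen replicate 1 they were 0.25, 0.23 and 0.30, and all 9 were above 0. With the mouse share as a covariate 4 of 9 were above 0 and 0 passed, in a fit that called 114 genes higher and 11 lower in all.

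**Figure D3:**
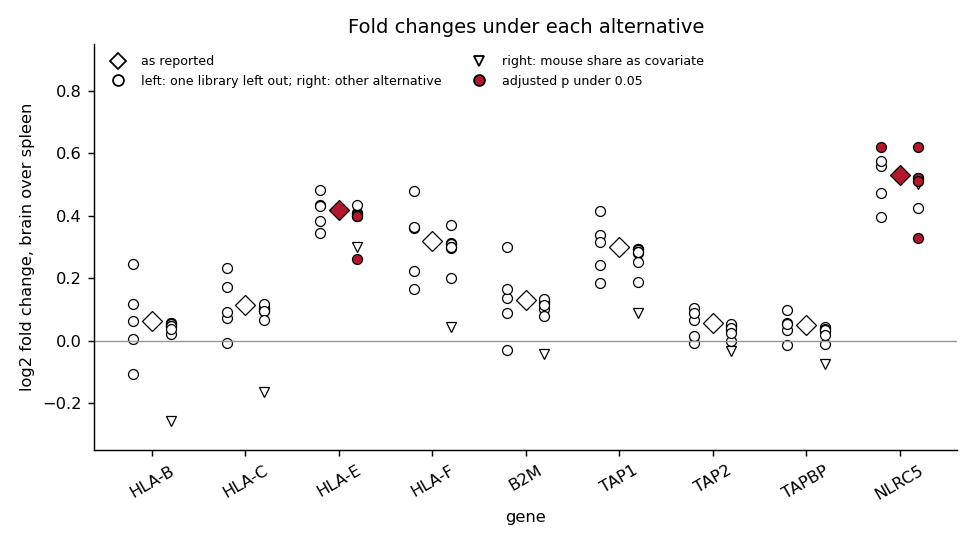
Log2 fold change of each class I gene as reported (diamond), with 1 library left out (left) and under the other alternatives (right, a triangle for the mouse share as covariate); filled points passed the adjusted threshold. HLA-E and NLRC5 stay above 0 throughout but are often open, whereas HLA-B, HLA-C, B2M, TAP2 and TAPBP cross 0.

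Levels of different genes can be compared per length, as TPM (kallisto's length-corrected abundance) summed over annotated transcripts. The sums take in retained-intron forms and forms annotated as subject to nonsense-mediated decay, so they are not levels of protein-coding RNA alone. In brain B2M led at 4065 ± 240.2 TPM (SD, n = 3), then HLA-B at 1477 ± 211, HLA-C at 667 ± 87.8, HLA-E at 328 ± 27.9, NLRC5 at 194 ± 32.8, HLA-F at 166 ± 23.7, TAP1 at 77.2 ± 8.17, TAPBP at 56.6 ± 6.41 and TAP2 at 46.5 ± 6.32. The order in spleen was the same, from B2M at 3645 ± 556 TPM (SD, n = 2) and HLA-B at 1344 ± 76.6 down to TAPBP at 53.1 ± 7.06 and TAP2 at 43.9 ± 8.31. NLRC5 was above HLA-F in each brain library, although their ranges overlapped (168 to 231 against 150.1 to 193 TPM). In spleen their order differed between the libraries, at 116 against 127 TPM in replicate 1 and 135 against 118 TPM in replicate 2. TAPBP was above TAP2 within every library, although their ranges over libraries overlapped (49.2 to 60.8 against 39.4 to 51.4 TPM in brain). The annotated transcripts held 73.3% to 81.1% of the gene table's B2M count, 82.5% to 97.2% of the NLRC5 count, 89.1% to 91.6% of the HLA-C count and 93.7% to 95.6% of the TAP2 count. The levels of these genes leave out the remaining counts, whose share in TPM was not determined. The summed estimate for NLRC5 covers the libraries unevenly.

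At the transcript level the HLA-E signal lay almost wholly in 1 protein-coding transcript, HLA-E-201 of 2601 bases. It stood at 277, 329 and 307 TPM in brain and 217 and 223 TPM in spleen, 89.2% to 95.3% of the gene's TPM. TAP1-201 held 90.8% to 94.8% of the TAP1 signal, at 64.4, 72.3 and 79.9 TPM in brain and 57.2 and 55.4 TPM in spleen. HLA-F was divided: its protein-coding transcript HLA-F-217 made up 40.1% to 46.0% of the gene's TPM in brain and 54.8% and 50.3% in spleen. At 60.1, 78.6 and 71.1 TPM against 69.5 and 59.4 TPM, that transcript overlapped between the organs. NLRC5 was spread over 22 transcripts of at least 1 TPM, the leading one, NLRC5-218, annotated as subject to nonsense-mediated decay, taking 11.8% to 14.2%. NLRC5-218 stood at 23.8, 27.5 and 21.5 TPM in brain and 14.4 and 17.4 TPM in spleen. For B2M the 2 leading transcripts, B2M-209 and B2M-201, were both annotated as subject to nonsense-mediated decay. They held 50.6% to 59.4% and 29.8% to 35.8% of the gene's TPM. The leading transcripts of HLA-B and HLA-C, HLA-B-249 and HLA-C-201, held 57.0% to 65.9% and 72.8% to 83.2% of their genes' TPM, and retained-intron forms came next in both.

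Sequence shared between genes limits these assignments. Of the stretches of 31 bases in the leading transcript, 32.0% for HLA-B, 19.6% for HLA-C, 13.9% for HLA-E and 39.5% for HLA-F also occurred, on either strand, in an annotated transcript of another gene. The share was 22.6% for TAP1, 35.5% for TAP2 and 44.6% for TAPBP, mostly with 1 other gene each, and 0% for the leading transcripts of B2M and NLRC5. Estimated counts of the HLA genes and of genes that overlap others are therefore uncertain. Alternative haplotype identifiers carry no symbol in the annotation used here: 8895 identifiers of the count table were unmatched, 7250 of them with 0 counts in all 5 libraries, and all unmatched ones together held 0.208% to 0.334% of a library's counts. Counts of the 9 genes under such identifiers were therefore not added. The 9 genes themselves held 0.468% to 0.574% of a library's counts, so the unmatched share is not small beside theirs. How much of it belongs to class I genes was not determined. The search for shared stretches covered annotated transcripts only, so copies under such identifiers were left out of it.

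Peptide supply, which provides what class I molecules carry, had no gene past the threshold on the higher side. Of 15 genes of peptide supply (proteasome subunits, their activator and peptidases), 0 were higher and 2 lower, with a median log2 fold change of -0.15. Over all tested genes 6.01% were higher and 3.5% lower. PSMB6, a constitutive catalytic proteasome subunit, had 99.6, 103 and 122 CPM in brain and 193 and 143 CPM in spleen, and so fell by 0.64 on the log2 scale (SE 0.144, edgeR adjusted p = 0.0289), and the call was lost without brain replicate 1, brain replicate 2 or spleen replicate 1 (adjusted p = 0.114, 0.0967 and 0.134). LAP3, a leucine aminopeptidase, fell by 0.39 on the log2 scale (edgeR adjusted p = 0.0400), and its call held without brain replicate 3 and was lost without each of the other 4 libraries (adjusted p of 0.0504 to 0.160). At an unadjusted p under 0.05 the list had 0 genes higher and 5 lower, where 14.2% of all tested genes were higher and 11.3% lower by edgeR. DESeq2 called 0 genes of the list higher and 3 lower. The interferon-inducible subunits PSMB8, PSMB9 and PSMB10, singled out after their values were seen, had log2 fold changes of -0.073, -0.15 and -0.26 and did not pass (edgeR adjusted p = 0.767, 0.616 and 0.321). Each had its highest value in spleen replicate 1, at 251, 143 and 151 CPM.

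Of 12 genes of folding and peptide editing in the endoplasmic reticulum, 0 were higher and 0 lower by edgeR, against 6.01% and 3.5% of all tested genes. At an unadjusted p under 0.05, and by DESeq2, 0 were higher and 1 lower. By edgeR 14.2% of all tested genes were higher and 11.3% lower at that unadjusted p. The lower gene by edgeR, CALR, singled out after its values were seen, had 386, 407 and 421 CPM in brain and 586 and 488 CPM in spleen. Its log2 fold change was -0.41 (edgeR adjusted p = 0.0536). The most abundant of the 12, CANX, which encodes the chaperone calnexin, had 580, 555 and 592 CPM in brain and 602 and 571 CPM in spleen. Its log2 fold change was -0.026 (edgeR adjusted p = 0.905).

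Among 16 regulators that act on class I promoters, 1 was higher and 0 lower, with a median of 0.13. Over all tested genes 6.01% were higher and 3.5% lower. A single call in a list of 10 to 16 genes, as in each list of this paragraph, does not set the list apart from that share. The higher one was IRF9, the DNA-binding part of the type I interferon complex, at 12.7, 14.8 and 15.1 CPM in brain and 9.32 and 8.79 CPM in spleen. Its log2 fold change was 0.65 (SE 0.137, edgeR adjusted p = 0.0221), and the call held without brain replicate 1 and was lost without each of the other 4 libraries (adjusted p of 0.0573 to 0.0790). No gene of the list was lower at an unadjusted p under 0.05 (0 by edgeR, DESeq2 and limma). Of 11 genes of interferon signalling 1 was higher and 0 lower: JAK2, a receptor kinase, at 17.2, 17.0 and 15.7 CPM against 10.1 and 12.7 CPM (log2 fold change 0.55, edgeR adjusted p = 0.0417). That call held without spleen replicate 2 and was lost without each of the other 4 libraries (adjusted p of 0.0679 to 0.189). At an unadjusted p under 0.05, 3 genes of this list were higher and 0 lower by each tool. By edgeR 14.2% of all tested genes were then higher and 11.3% lower. Of 10 genes of class I restraint and turnover 1 was higher and 0 lower. It was IRF2BP2, a transcriptional corepressor, at 240, 220 and 218 CPM in brain and 141 and 131 CPM in spleen (log2 fold change 0.73, SE 0.101, edgeR adjusted p = 0.00377), and its call held without each library. With the mouse share as a covariate IRF2BP2, IRF9, JAK2, PSMB6 and LAP3 did not pass (edgeR adjusted p = 0.120, 0.530, 0.209, 0.0964 and 0.268). At an unadjusted p under 0.05 the restraint list had 2 genes higher and 3 lower by edgeR, against the same 14.2% and 11.3%. DESeq2 called 1 gene of it higher and 3 lower.

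Of 18 class I related molecules 12 were tested, and none is counted here as changed. The 1 gene past the edgeR threshold, PROCR, which encodes the endothelial protein C receptor, had 10, 11 and 9 counts in brain and 1 in each spleen library, so it passed the filter on low counts only through the brain libraries. Scaled to library size, brain exceeded spleen 10.6-fold (2.69 to 91.5, a 95% interval for counting error only). Of the 5 fits that left out a library, the 1 without brain replicate 3 kept it past the threshold. Without spleen replicate 1 or 2 it did not pass (edgeR adjusted p = 0.144 and 0.146), and without brain replicate 1 or 2 it was not tested. DESeq2 called 0 genes of this list. HLA-G, a further heavy chain gene, was detected at a low level, 0.788 to 1.15 CPM in brain and 0.957 and 0.754 CPM in spleen.

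Interferon target genes had 9 of 28 members higher and 0 lower by edgeR, DESeq2 and limma, where 6.01% of all tested genes were higher and 3.5% lower by edgeR. At an unadjusted p under 0.05, 10 were higher and 1 lower, where 14.2% of all tested genes were higher and 11.3% lower by edgeR. With the mouse share as a covariate 1 of the 28 passed on the higher side. GBP4, a guanylate-binding protein gene, had 81.3, 87.6 and 80.0 CPM in brain and 30.03 and 24.3 CPM in spleen (log2 fold change 1.61, edgeR adjusted p = 0.000228). IFI44L, IRF7 and IFIT2 had log2 fold changes of 1.94, 0.90 and 1.17, and with the mouse share as a covariate they did not pass (edgeR adjusted p = 0.109, 0.219 and 0.207), while GBP4 did (0.0219). The list's median was 0.17, 19 members did not pass, and its summed level was 984 to 1074 CPM in brain and 921 and 850 CPM in spleen.

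**Figure D4:**
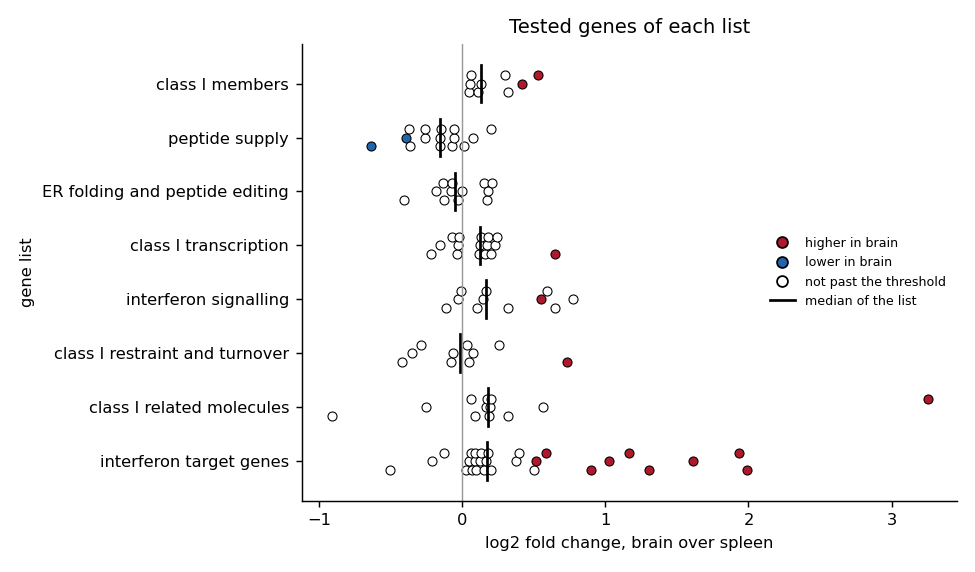
Log2 fold changes of all tested genes in the class I set and in each further list, with a black bar at the list's median; red points were higher and blue points lower in brain. The interferon target genes have 9 red points reaching 1.99, and peptide supply has 2 blue points, while the red point among related molecules is PROCR, kept by the filter only through its brain counts.

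The profile of the 4 heavy chain genes over the 5 libraries, averaged after centring each gene's log2 CPM on its own mean, was 0.0066, 0.18 and 0.096 in brain and -0.0060 and -0.27 in spleen. The low value of spleen replicate 2 is its main feature. Among the 10218 non-member genes whose mean log2 CPM reached 3, the 5 at the smallest Euclidean distance from this profile were TPST2 (0.0506), ZKSCAN4 (0.0629), ETV5 (0.0666), EGFL7 (0.0792) and MARCHF8 (0.0849). None of these 5 passed the edgeR threshold.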

How the data were processed

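RNA of REH cells from brain (3 libraries) and spleen (2 libraries) was sequenced after a stranded mRNA library preparation, per the labels' protocols. The submitters' processing notes name cutadapt 1.5, kallisto 0.42.4, DESeq2 and the builds GRCh38 and GRCm38, and the strand setting is not given in the sources used here. The gene table deposited by the authors holds estimated counts per human gene as whole numbers, its companion holds the authors' rlog values on a log2 scale, and the library tables deposited by the authors hold estimated counts and TPM per human or mouse transcript. The gene tables had 1 column each of no sample in the series, which was not used.

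Genes were kept by filterByExpr, scaled by TMM and tested with edgeR 4.0.16 (R 4.3.3, quasi-likelihood F test, 3 residual degrees of freedom) on origin alone, with Benjamini-Hochberg adjustment over 20419 genes and a threshold of 0.05. DESeq2 1.42.0 and limma 3.58.1 served as alternatives. Symbols matched 86.36% of gene identifiers. Replicate numbers mark occasions, per the labels' protocols, but the spleen columns are numbered otherwise in the count table, so it is uncertain that same-numbered brain and spleen libraries share an occasion, and the replicate block assumes it. Brain replicate 3 has no same-numbered spleen library, so it adds nothing to the organ difference in the block fit. Deviations of same-numbered libraries correlated at -0.025 for replicate 1 and 0.15 for replicate 2 over 20419 genes. The fit was tested on simulated data.

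The members and gene lists were chosen with earlier results of these data known. All 9 members were named. From each other list up to 4 genes past the threshold with the smallest p were named, or the most abundant where none passed, along with the 5 genes nearest to the heavy chain profile and the leading transcripts of the members that the text describes.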

Additional observations from a re-analysis of the deposited data

How the results depend on the processing

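With 3 against 2 libraries, calls near the threshold moved with most choices. Of the 9 members, 2 were higher as reported, against 0 with DESeq2 size factors, 0 with summed transcript estimates, 0 with the mouse share as covariate and 0 to 1 with 1 library left out. With the mouse share as covariate, log2 fold changes were -0.043 for B2M, -0.26 for HLA-B, -0.16 for HLA-C, -0.033 for TAP2 and -0.074 for TAPBP. That fit called 0 peptide supply genes lower and 0 higher among class I transcription, interferon signalling, restraint and related genes, and 1 interferon target higher. It called 114 genes higher and 11 lower in all, against 1228 and 714 as reported. Leaving out 1 library gave 515 to 871 higher and 146 to 828 lower. No filter gave 1830 and 1337, and the DESeq2 Wald test 1521 and 1289.

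The labelled number as a replicate block called 1 member (NLRC5) and 2 restraint genes lower, with log2 fold changes of -0.0017 for TAP2 and -0.0093 for TAPBP.

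Without 1 library, ranges were -0.028 to 0.30 for B2M, -0.11 to 0.25 for HLA-B, -0.0060 to 0.23 for HLA-C, -0.0063 to 0.11 for TAP2, -0.013 to 0.10 for TAPBP and -0.066 to 0.0033 for CANX. Counts were then 0 to 4 lower for peptide supply, 0 to 1 lower for folding and for interferon targets, and 0 to 1 higher for class I transcription, interferon signalling and related genes.

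Upper-quartile scaling called 1 folding gene and 1 restraint gene lower. No filter called 4 peptide supply, 1 folding, 2 restraint and 1 interferon target genes lower and 2 interferon signalling genes higher. At least 1 CPM called 1 folding and 1 restraint gene lower, 3 interferon signalling genes higher and 0 related genes higher. The DESeq2 Wald test called 1 folding and 3 restraint genes lower, 3 interferon signalling genes higher and 0 related genes higher. Limma called 2 interferon signalling genes higher and summed transcript estimates 0. The cause of these differences was not tested. TPM rescaled to human transcripts gave 1480 for HLA-B, 635 for HLA-C, 265 for HLA-E, 135 for HLA-F and 67.3 for TAP1 in spleen, and 4321 for B2M in brain. Summing counts or TPM over alternative haplotype identifiers was not run, since no table used here pairs them with symbols.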
